A study of Mus musculus with 6 samples.

Results

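Spink5, Urah, Fam167b, Rhox2h, Irx2 and Hmga2 are 6 of the 26529 genes in a deposited RNA-seq table of cultured mouse bone marrow cells, which covers 6 libraries. All 6 symbols were found in the table. The genes had been selected on these same libraries, because their level was at or near 0 in the libraries labelled OCP and clearly above it in those labelled OC. Their difference between the groups is therefore given as a description, with no test. The group labelled OC (osteoclasts, 3 libraries) was taken on day 6 and the group labelled OCP (osteoclast precursors, 3 libraries) on day 3. All 6 libraries came from wild-type C57BL/6 mice aged 8 weeks, whose bone marrow-derived macrophages were cultured with the growth factor M-CSF at 20 ng/ml and with RANKL, the cytokine that drives osteoclast formation, at 10 ng/ml. No animal of a disease model and no culture without RANKL is among these libraries. Nothing in the labels ties the replicates to separate mice or cultures. The p-values below therefore rest on sample-to-sample spread that may be technical.

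Osteoclasts are the multinucleated cells that resorb bone, and they arise by fusion of macrophage-lineage precursors. None of the 6 genes is a standard marker of this lineage. Spink5 encodes LEKTI, a secreted inhibitor of serine proteases best known from skin, where it restrains the kallikreins that shed the outer layer. Urah encodes 5-hydroxyisourate hydrolase, an enzyme of liver that works just after uricase on the way from urate to allantoin. Irx2 is a transcription factor of the Iroquois homeobox family, used in patterning of the embryo. Rhox2h belongs to the Rhox homeobox cluster on the X chromosome, whose genes are known from testis, ovary and placenta. Hmga2 encodes a small chromatin protein that binds AT-rich DNA, is abundant in embryos and is repressed by let-7 microRNAs in most adult tissues. Fam167b has no role that is stated here.

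The level is given in RPKM, reads scaled to exon length and to the reads assigned to genes in the library, so that levels can be compared between genes. Read counts were recovered from the RPKM values, with the smallest step of each library taken as 1 read. On that basis, between 33219178 and 42121216 reads per library had been assigned to genes. Low read counts were mostly even, at 76.3% to 79.7% of all counts from 1 to 20, and 2 reads were 3.68 to 4.50 times as frequent as 1 read. Counting intervals were therefore computed on read pairs, taken as 2 reads, and they cover counting error only. A floor of 3 pairs is worth 0.142 to 0.181 RPKM per library for a gene of 1 kb. The labels of the groups were set against marker genes. Over all 12301 tested genes, limma called 23.5% higher and 32.1% lower in OC. All 10 osteoclast markers were lower in OC than in OCP by limma, with a summed level of 2730 to 2815 RPKM in OC libraries and 5104 to 5261 RPKM in OCP libraries. Of 8 macrophage markers, 6 were higher and 2, Cd68 and Csf1r, lower in OC, with or without the filter of 1 RPKM in at least 3 libraries. Cx3cr1 and Mrc1, among the 6, passed that filter through their OC libraries alone. In the filtered fit they could thus be tested in this direction only. The sums were 8280 to 8774 RPKM in OC and 5240 to 5694 RPKM in OCP, most of it Lyz2 at 7197 and 4080 RPKM. The osteoclast markers thus go against the labels, and OC and OCP below are names of libraries, not of a checked cell state.

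Sequence upstream of the gene start was available for 5 of the 6 genes (RefSeq, build GRCm38.p6). The 250 bases before the start are shown for 4 of them, because they differ widely in base composition. The genes were chosen for their pattern over the libraries, so this pattern is not a result to set against the sequences. Capitals mark a GC box (GGGCGG, either strand) or an E-box (CACGTG), and each sequence runs 5′ to 3′ on the strand of its gene.
Irx2, chr13:72628570-72628819, plus strand: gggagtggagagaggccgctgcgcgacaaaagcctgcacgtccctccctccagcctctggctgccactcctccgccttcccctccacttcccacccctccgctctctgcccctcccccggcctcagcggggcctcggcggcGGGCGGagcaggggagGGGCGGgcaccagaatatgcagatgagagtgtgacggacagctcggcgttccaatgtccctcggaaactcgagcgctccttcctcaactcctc
Hmga2, chr10:120476470-120476719, minus strand: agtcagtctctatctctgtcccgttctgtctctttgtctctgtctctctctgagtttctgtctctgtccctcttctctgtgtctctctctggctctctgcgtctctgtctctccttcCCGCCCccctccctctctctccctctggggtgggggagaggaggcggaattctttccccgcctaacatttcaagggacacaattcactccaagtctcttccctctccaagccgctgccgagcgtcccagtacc
Rhox2h, chrX:37673278-37673527, minus strand: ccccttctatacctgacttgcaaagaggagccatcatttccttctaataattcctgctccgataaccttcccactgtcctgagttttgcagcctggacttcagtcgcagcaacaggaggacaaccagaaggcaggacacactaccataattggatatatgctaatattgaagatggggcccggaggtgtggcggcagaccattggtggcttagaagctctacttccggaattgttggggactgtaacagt
Fam167b, chr4:129578581-129578830, minus strand: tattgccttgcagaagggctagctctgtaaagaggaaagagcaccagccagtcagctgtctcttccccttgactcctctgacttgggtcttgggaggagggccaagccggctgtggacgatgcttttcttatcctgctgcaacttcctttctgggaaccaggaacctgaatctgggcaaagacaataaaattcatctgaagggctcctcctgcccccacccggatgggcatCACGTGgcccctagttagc

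The Irx2 window held 19 CpG dinucleotides and 68.4% G and C, and 80.3% of all 32851 RefSeq promoter windows of this length held fewer CpG. The Hmga2 window had 8 CpG, that of Rhox2h 5 and that of Fam167b 4, against a median of 6 over all windows. The Irx2 window had 2 GC boxes and the Hmga2 window 1, a motif present in 32.7% of all windows. Fam167b had 1 E-box, found in 6.02% of all windows. The RefSeq start used for Fam167b is not a transcript start in the gene set GENCODE M21. No match to AP-1 (TGANTCA, 6.75% of windows), to TATAAA (12.4%) or to the NF-kB motif (7.25%), searched on both strands, lay in the windows shown or in those of Urah. The windows of the 2 RefSeq starts of Urah had 1 and 7 CpG. A match is a run of letters and does not show binding.

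**Figure D1:**
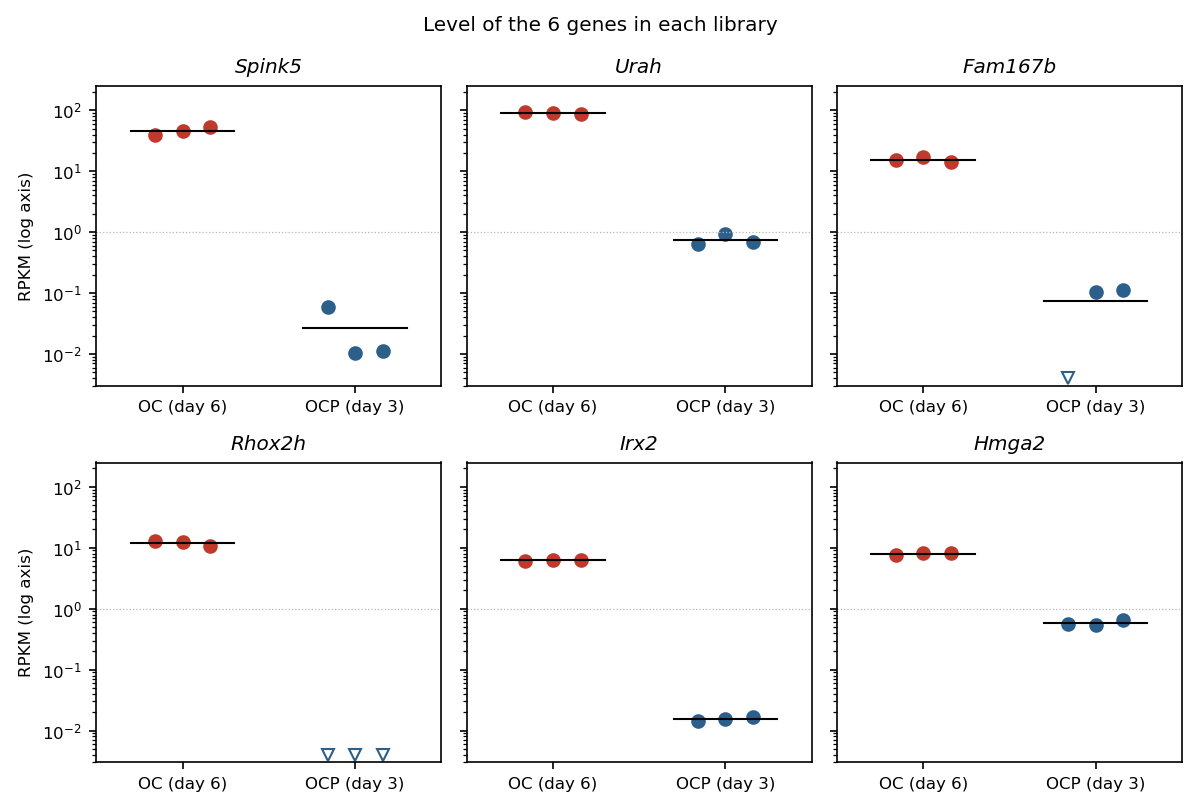
RPKM (log axis) of each of the 6 genes in the 3 OC libraries (red, day 6) and the 3 OCP libraries (blue, day 3), with points in the order of replicates 1 to 3 and a black line at each group mean. Open triangles at the lower edge mark a library in which the gene is at 0, and the dotted line is 1 RPKM; every OC value lies above 6 RPKM and every OCP value below 1 RPKM.

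Spink5 spans chromosome 18 from 43963235 to 44022501 on the plus strand (GRCm38), with 4785 exon bases in 32 blocks. Its level was 39.8, 45.1 and 52.3 RPKM in OC replicates 1, 2 and 3, against 0.0595, 0.0105 and 0.0114 RPKM in OCP replicates 1, 2 and 3. These values came from 6674, 7169 and 9534 reads in OC and from 12, 2 and 2 reads in OCP. The groups lay far apart, and the OCP level rested on 16 reads in all. The mean was 45.7 ± 6.24 RPKM in OC and 0.0271 ± 0.0281 RPKM in OCP (SD, n = 3 each), a ratio of 1685. Without OCP replicate 1, which held most of the OCP reads, the ratio was 4177. Taking counting error of the OCP pairs alone, the exact 95% Poisson interval of the OCP level, 0.0122 to 0.0556 RPKM, corresponds to ratios of 823 to 3757. In OC, Spink5 stood at rank 1356 of the table and in OCP at rank 20458. Its spread was the widest of the 6 genes in OC, with a coefficient of variation of 13.6% where counting of pairs alone gives 1.60%. None of its exon bases was shared with another gene of the table.

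Urah, on the plus strand of chromosome 7 from 140835018 to 140837966, had the highest level of the 6 genes in OC and also the highest in OCP. OC replicates had 94.7, 90.5 and 86.7 RPKM, against 0.632, 0.918 and 0.687 RPKM in OCP replicates. The reads behind them were 4729, 4290 and 4718 in OC and 38, 52 and 36 in OCP. The OCP level was low but resolved, since every OCP library exceeded its floor. Means were 90.6 ± 3.96 RPKM in OC and 0.746 ± 0.152 RPKM in OCP (SD, n = 3 each), a ratio of 122. Urah ranked 682 in OC and 12578 in OCP.

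Among the regulators of transcription, Irx2 had the most even values. The gene lies on chromosome 13 from 72628820 to 72634198 on the plus strand, with 3282 exon bases. Its level was 6.05, 6.37 and 6.38 RPKM in OC replicates, against 0.0145, 0.0153 and 0.0166 RPKM in OCP replicates. Each OCP library held exactly 2 reads, the yield of a single pair, while OC libraries held 695, 694 and 798 reads. The close OCP values thus reflect the same smallest step in each library and are not a measure of precision. The mean was 6.26 ± 0.187 RPKM in OC and 0.0155 ± 0.00106 RPKM in OCP (SD, n = 3 each). The ratio was 405, and counting error of the 6 OCP reads allows 139 to 1970.

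Rhox2h lies on the minus strand of the X chromosome from 37668989 to 37673277, with 787 exon bases. It had 13.1, 12.4 and 10.8 RPKM in OC replicates and 0 RPKM in each of the 3 OCP replicates. Reads numbered 360, 324 and 324 in OC, and no read was assigned to it in OCP. Each of the other 5 genes had at least 6 reads in OCP. Its OC mean was 12.1 ± 1.16 RPKM (SD, n = 3). The ratio of the OC mean to a floor of 3 pairs over the 3 OCP libraries, which is 0.0643 RPKM, was 188. The exact interval on pairs used for the other genes reaches 0.0791 RPKM in OCP, which puts the lower bound of the ratio at 153.

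Hmga2 covers chromosome 10 from 120361275 to 120476469 on the minus strand, with 6772 exon bases, the largest exon length of the 6. Its level was 7.57, 8.17 and 8.21 RPKM in OC replicates, against 0.568, 0.532 and 0.663 RPKM in OCP replicates. With 1794, 1839 and 2119 reads in OC and 162, 143 and 165 reads in OCP, it had the most OCP reads of the 6. Its means were 7.98 ± 0.361 RPKM in OC and 0.588 ± 0.0678 RPKM in OCP (SD, n = 3 each). The ratio of 13.6 was the smallest of the 6 genes, and its OCP level was low, not near 0.

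Fam167b lies on the minus strand of chromosome 4 from 129576815 to 129578549 and has 959 exon bases in 3 blocks. Its level was 15.4, 17.3 and 13.98 RPKM in OC replicates, against 0, 0.105 and 0.114 RPKM in OCP replicates. Reads numbered 518, 550 and 511 in OC and 0, 4 and 4 in OCP. Every OCP value lay under the floor of 3 pairs for this short gene, 0.149 to 0.170 RPKM. Means were 15.6 ± 1.65 RPKM in OC and 0.0729 ± 0.0632 RPKM in OCP (SD, n = 3 each), a ratio of 214, with 86.4 to 812 allowed by counting error in OCP.

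In all 6 genes the 3 OC libraries lay above the 3 OCP libraries. The choice of the genes fixed this separation, which 18.6% of all genes of the table showed in the same direction. In OC the order of levels was Urah, Spink5, Fam167b, Rhox2h, Hmga2 and Irx2, and the ranges of neighbours in this order did not overlap. The order in OCP was Urah, Hmga2, Fam167b, Spink5, Irx2 and Rhox2h. There the ranges of Urah and Hmga2 overlapped, as did those of Fam167b and Spink5 and those of Spink5 and Irx2. The OC replicates did not share one order. Spink5, Irx2 and Hmga2 were highest in replicate 3, Fam167b in replicate 2, and Urah and Rhox2h in replicate 1. In bulk RNA, a change in the number of cells that carry a transcript and a change in RNA per cell cannot be told apart.

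**Figure D2:**
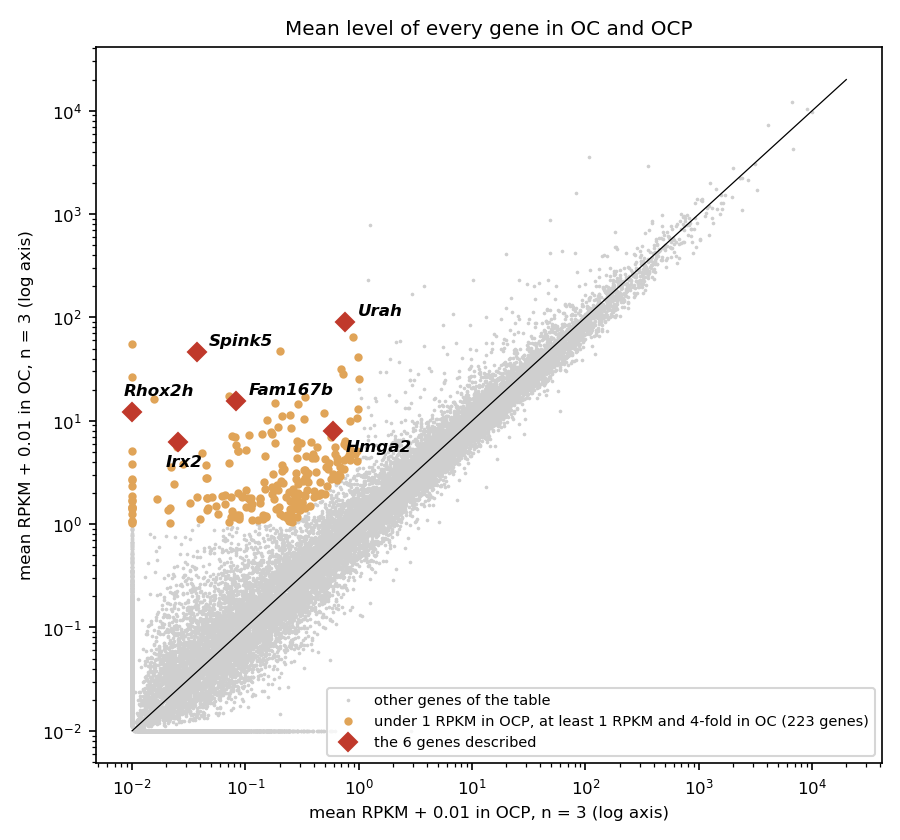
Mean RPKM plus 0.01 in OC (vertical, log axis, n = 3) against OCP (horizontal, log axis, n = 3) for every gene of the table, with the line of equal levels. Orange points are the 223 genes under 1 RPKM in OCP that reached 1 RPKM and 4-fold in OC, and red diamonds the 6 genes described, of which Urah is highest and Rhox2h lies at 0 in OCP.

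The plot of all genes shows how common the pattern was. Of 14672 genes with an OCP mean under 1 RPKM, 677 reached 1 RPKM in OC, and 223 of these did so with a ratio of at least 4, which is 1.52% of the 14672. The opposite pattern, at least 1 RPKM in OCP and under 1 RPKM in OC with the same ratio, held for 11 genes. No limit on length or reads was set for these counts. The 223 thus include very short genes, such as Ighd4-1 (11 exon bases, 2.64 RPKM in OC), for which a few reads exceed 1 RPKM. By OC mean, Urah was 1st of the 223, Spink5 5th, Fam167b 14th, Rhox2h 18th, Hmga2 28th and Irx2 38th. An OCP mean under 0.1 RPKM with an OC mean of at least 5 RPKM was found in 17 genes, among them Spink5, Fam167b, Rhox2h and Irx2. The 6 genes passed the filter for testing, 1 RPKM in at least 3 libraries, through their OC libraries alone.

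The genes nearest in level and pattern were found by Euclidean distance over the 6 libraries on log2(RPKM + 0.1). Csf2, which encodes the cytokine GM-CSF, was closest to Spink5 (distance 0.91), with 54.9 RPKM in OC and 0 in OCP. Gm8210 was closest to Urah (0.93), with 65.2 RPKM in OC and 0.870 RPKM in OCP. Mycn, a transcription factor of the MYC family, was closest to Rhox2h (0.79) and second to Gm10499 for Fam167b (1.38). It had 16.2 RPKM in OC and 0.00551 RPKM in OCP. The gene closest to Irx2 was C330022C24Rik (0.58), the antisense neighbour of Urah, ahead of Hamp, which encodes the iron hormone hepcidin (0.68, 5.07 RPKM in OC and 0 in OCP). Ndrg2 was closest to Hmga2 (0.58), with 6.88 RPKM in OC and 0.558 RPKM in OCP. With a pseudocount of 1 in place of 0.1, 5 of the 12 nearest genes, 2 for each gene, stayed the same, so these lists depend on how low values are weighted.

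Shared exons and near-copies bear on how far the reads can be assigned to each gene. The sources used here do not give the strand setting of the counting, and reads of antisense pairs cannot be told apart where exons overlap. C330022C24Rik, on the minus strand from 140837221 to 140845689, shared 177 exon bases with Urah, 12.4% of the exon length of Urah. It had 5.89, 5.12 and 5.53 RPKM in OC replicates, against 0.0441, 0 and 0 RPKM in OCP replicates. The antisense gene was higher in OC by 2.68 ± 0.07 on the log2(RPKM + 1) scale (SE, adjusted p = 5.77e-08, limma with Benjamini-Hochberg adjustment over 12301 genes, and 3.27e-06 without the filter). Its OC reads came to 632, which is 4.60% of those of Urah. A second gene, RP23-114A6.7, spans Urah without sharing an exon base, at 8.96 RPKM in OC and 10.2 RPKM in OCP.

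1700006J14Rik, antisense to Hmga2, shared 140 bases or 2.07% of the Hmga2 exons. It had 0.822, 0.689 and 0.837 RPKM in OC replicates, against 0.0247, 0.105 and 0.132 RPKM in OCP replicates, and was below the filter. Without the filter it was higher in OC by 0.71 on the log2(RPKM + 1) scale (adjusted p = 0.000689, limma), in a fit that called 12.2% of 26529 genes higher. Its 241 OC reads were 4.19% of the number for Hmga2. Spink5, Fam167b, Rhox2h and Irx2 shared no exon base with another gene of the table.

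Sequence shared between transcripts was counted in GENCODE M21. No window of 50 bases in Spink5 or Fam167b transcripts recurred in a transcript of another gene, and 0.481% of those of Irx2 did, in Irx5. For Hmga2 the share was 2.73%, and for Urah it was 8.37%, all in C330022C24Rik. Rhox2h had the highest share, with 49.8% of its 50-base windows and 10.7% of its 100-base windows found in other Rhox2 genes. The Rhox2 coding sequences all had 573 bases, and the 7 paralogs were 94.1% to 95.1% identical to Rhox2h, with 28 to 34 differing bases. A stretch of 60 coding bases is shown, positions 348 to 407 counted from the start of the coding sequence. It was picked for the most differences between Rhox2h and Rhox2g, so it does not represent the whole coding sequence. Capitals mark positions at which the 3 genes are not all alike.
Rhox2h: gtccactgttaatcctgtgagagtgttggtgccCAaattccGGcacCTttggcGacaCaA
Rhox2g: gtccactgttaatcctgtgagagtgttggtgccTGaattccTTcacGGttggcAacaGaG
Rhox2e: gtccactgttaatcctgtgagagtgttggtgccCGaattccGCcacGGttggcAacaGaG

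In this stretch Rhox2g differed from Rhox2h at 9 bases and Rhox2e at 7. Over the whole coding sequence the differing bases were 30 for Rhox2g and 32 for Rhox2e. Reads fell almost entirely on Rhox2h, with 1008 in OC, against 19 for Rhox2e, 13 for Rhox2g, 5 for Rhox2f and 3 each for Rhox2a and Rhox2d. None of these 6 genes had a read in OCP. No gene of the table is named Rhox2b or Rhox2c, so no level is given for them. The small counts of the paralogs are uncertain, because the treatment of reads that match several places is not given in the sources used here.

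**Figure D3:**
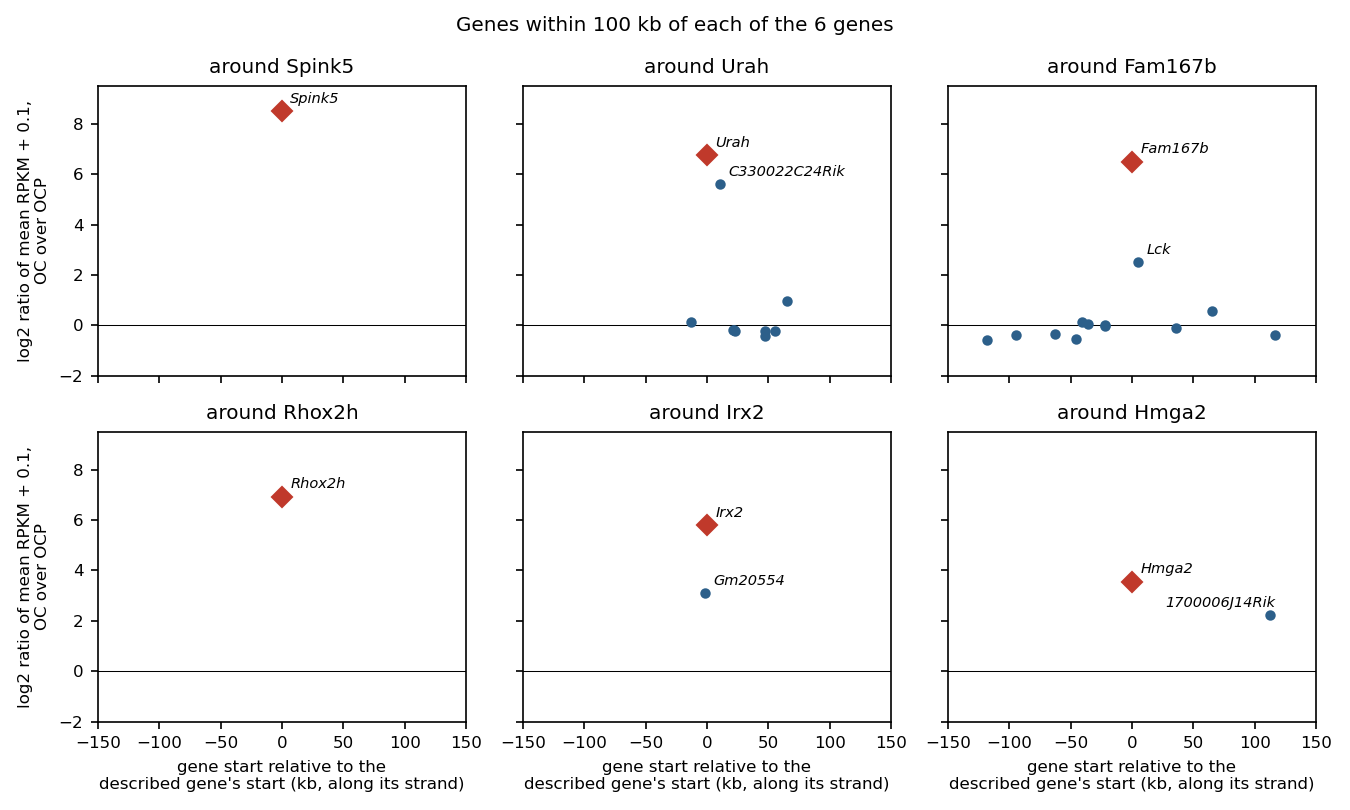
Log2 ratio of mean RPKM plus 0.1, OC over OCP, for genes within 100 kb of each of the 6 genes (diamonds) that had at least 20 reads in all, against the distance of their start in kb along the strand of the described gene. C330022C24Rik beside Urah, Lck beside Fam167b, Gm20554 beside Irx2 and 1700006J14Rik within Hmga2 lie above a log2 ratio of 1; the Spink5 and Rhox2h panels hold no other gene with 20 reads.

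The genes beside each of the 6 were not used in choosing them, and limma called 23.5% of the 12301 tested genes higher and 32.1% lower in OC. The balance depends on the processing. As deposited, 2889 genes were higher and 3954 lower, and with TMM factors 3483 were higher and 3216 lower. With voom, a different model under a different filter, 4258 of 15802 tested genes were higher and 3967 lower. Lck, C330022C24Rik and Rhox5, and Slc2a9 and Phc3 below, passed the filter through their OC libraries alone, so that in the filtered fit they could be tested in this direction only. Lck, the T cell and NK cell kinase, lies on the same strand, 3174 bases downstream of Fam167b. It had 1.22, 1.27 and 1.18 RPKM in OC replicates, against 0.114, 0.206 and 0.0743 RPKM in OCP replicates. The groups did not overlap, and Lck was higher in OC by 0.98 ± 0.07 on the log2(RPKM + 1) scale (SE, adjusted p = 2.16e-05, limma, and 0.000193 without the filter). Of 5 T and NK cell markers in the table, 4 were under 0.1 RPKM in both groups. The sum of all 5 was 1.35 to 1.75 RPKM in OC and 0.808 to 1.33 RPKM in OCP, most of it Il7r at 1.42 and 0.973 RPKM. The part of such cells in the Lck result was not tested. On the other side of Fam167b, Eif3i, a subunit of a translation initiation factor, lay 13411 bases upstream and had 18.0 ± 0.306 RPKM in OC and 17.6 ± 0.0994 RPKM in OCP (SD, n = 3 each, adjusted p = 0.537, limma).

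Gm20554 lies 1807 bases upstream of Irx2 on the opposite strand in the table, and in GENCODE M21 the 2 gene starts are 256 bases apart. It had 0.748, 0.609 and 0.906 RPKM in OC replicates and 0 in the 3 OCP replicates, from 68 reads in OC. Below the filter, it was higher in OC by 0.81 on the log2(RPKM + 1) scale in the fit of all genes (adjusted p = 0.00061, limma). On the far side of Irx2 the nearest detected gene, Gm10263, was 683646 bases away, and its groups overlapped, with 15.0 ± 1.63 RPKM in OC and 12.7 ± 0.731 RPKM in OCP (SD, n = 3 each, adjusted p = 0.0496 in limma, and 0.124 without the filter).

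Upstream of Rhox2h, at 131565 bases, stood Rhox5, the best-known gene of the cluster. It had 1.86, 1.08 and 1.88 RPKM in OC replicates, against 0, 0.0668 and 0 RPKM in OCP replicates. Rhox5 was higher in OC by 1.33 ± 0.13 on the log2(RPKM + 1) scale (SE, adjusted p = 7.81e-05, limma, and 0.000924 without the filter), from 130 reads in OC and 2 reads in OCP. It was the 1 Rhox gene, beside Rhox2h, that passed the filter. Without the filter, 3 of 8 other Rhox genes were higher in OC, namely Rhox5, Rhox2e and Rhox2g, and none was lower. That fit called 12.2% of all 26529 genes higher. Rhox2e and Rhox2g rested on 19 and 13 reads in OC, and whether these came from the near-copy Rhox2h was not tested.

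The remaining neighbours had close levels in both groups. Beside Urah, Bet1l had 5.74 ± 0.351 RPKM in OC and 6.72 ± 0.256 RPKM in OCP (SD, n = 3 each), a change of -0.20 on the log2(RPKM + 1) scale (adjusted p = 0.0245, limma). Zfp941 on the other side was at 0.0684 RPKM in OC and 0.0523 RPKM in OCP. Spink5 lies in a sparse region, with the nearest detected genes 358001 bases downstream and 485439 bases upstream. The closer of them, Dcp2, had 5.49 ± 0.424 RPKM in OC and 4.51 ± 0.350 RPKM in OCP (SD, n = 3 each, log2 change 0.23, adjusted p = 0.0268, limma). The calls of Bet1l and Dcp2 were each lost under some alternatives. Eif3j2 on the far side had 0.863 RPKM in OC and 0.932 RPKM in OCP. Beside Hmga2, Llph had 62.5 ± 1.37 RPKM in OC and 66.2 ± 0.208 RPKM in OCP (SD, n = 3 each, adjusted p = 0.122, limma), and Msrb3 had 0.0868 RPKM in OC and 0.0911 RPKM in OCP.

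**Figure D4:**
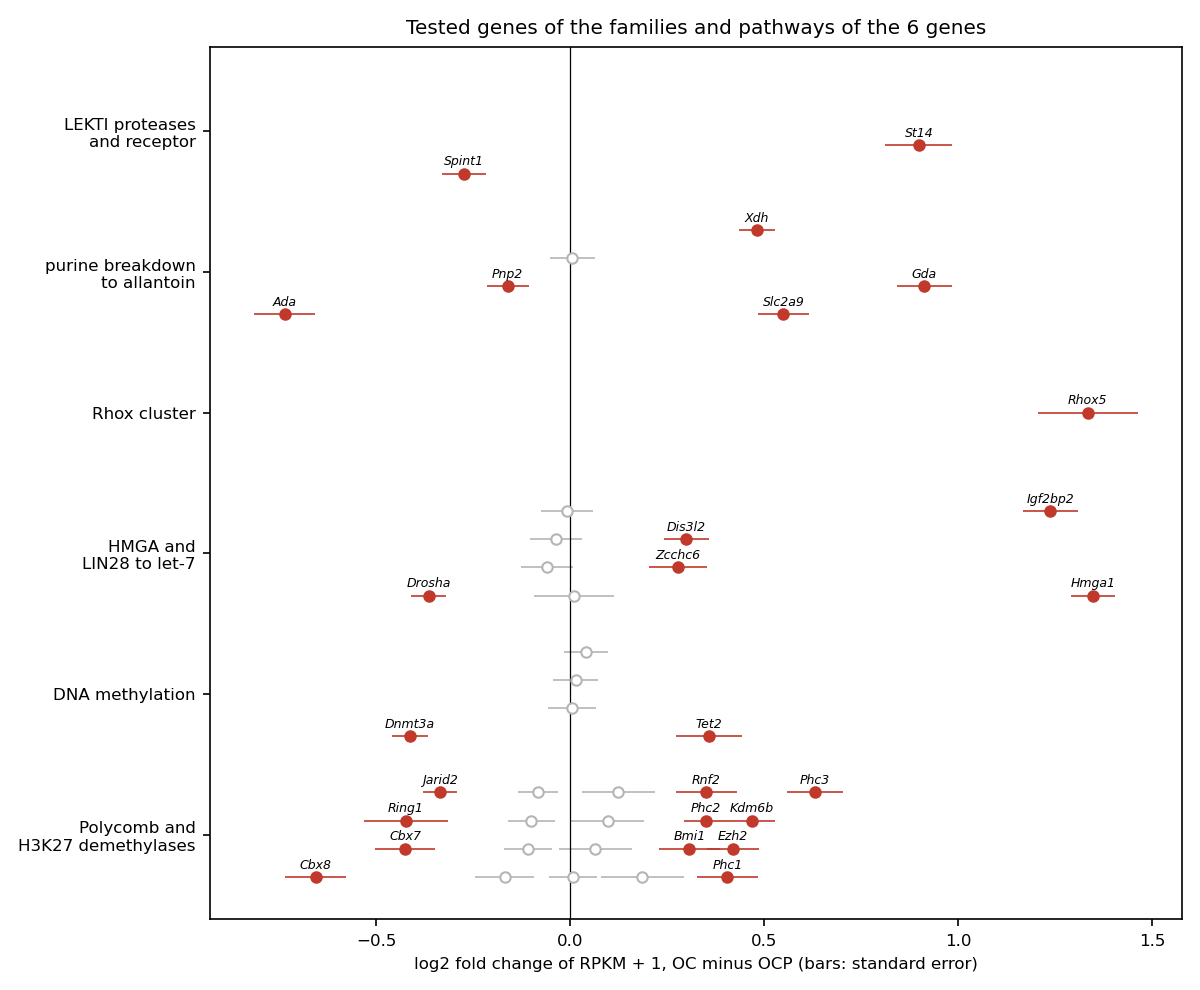
Log2 fold change of RPKM + 1, OC minus OCP, with its standard error, for the tested genes of 6 lists built around the roles of the 6 genes, which are themselves left out. Filled red points have an adjusted p under 0.05 (limma) and carry their name, open grey points do not; Hmga1, Rhox5 and Igf2bp2 lie furthest to the right and Ada furthest to the left.

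The other genes of each family and pathway were counted from lists built on the known roles of the 6 genes, and the plot of these lists shows each tested gene. Over all tested genes the median log2 change was -0.046, with 23.5% called higher and 32.1% lower, and the counts below stand beside these shares. The genes of skin proteases that human LEKTI is known to inhibit, Klk5, Klk6, Klk7, Klk13 and Klk14, were not analysed here. Of 8 listed proteases and partners in the table, 2 passed the filter. St14, the membrane protease matriptase, was higher, at 2.91 ± 0.319 RPKM in OC and 1.10 ± 0.151 RPKM in OCP (SD, n = 3 each, log2 change 0.90, adjusted p = 7.45e-05, limma). Spint1, an inhibitor of matriptase, was lower, at 3.72 ± 0.0938 RPKM in OC and 4.70 ± 0.214 RPKM in OCP (log2 change -0.27, adjusted p = 0.00434, limma). No other member of the SPINK family passed the filter, and the 3 in the table, Spink2, Spink8 and Spink14, were under 0.3 RPKM in both groups.

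Urah acts late in purine breakdown. Uox, which supplies its substrate, and Urad, which takes up its product, were not analysed here. Of 6 tested genes of the pathway, 3 were higher and 2 lower in OC, with a median log2 change of 0.24. Guanine deaminase, Gda, had 7.92 ± 0.548 RPKM in OC and 3.74 ± 0.291 RPKM in OCP (SD, n = 3 each, log2 change 0.91, adjusted p = 2.63e-05, limma). Xdh, the xanthine dehydrogenase that makes urate, had 22.8 ± 0.649 RPKM in OC and 16.1 ± 0.340 RPKM in OCP (log2 change 0.48, adjusted p = 7.09e-05, limma). The urate transporter Slc2a9 was the third gene that was higher, at 1.65 RPKM in OC and 0.807 RPKM in OCP, and it was not tested when an OC library was left out. Adenosine deaminase, Ada, was lower, at 4.17 ± 0.433 RPKM in OC and 7.60 ± 0.491 RPKM in OCP (log2 change -0.74, adjusted p = 0.000128, limma). Pnp, the main purine nucleoside phosphorylase, had 48.2 RPKM in OC and 48.1 RPKM in OCP. The call of its near-copy Pnp2 (12.5 RPKM in OC and 14.2 RPKM in OCP, log2 change -0.16, adjusted p = 0.0342) was lost under most alternatives, and reads of such copies can be split between them.

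No other Iroquois gene came near the level of Irx2 in OC. Irx3, Irx4, Irx5 and Irx6 had means under 0.07 RPKM in both groups, and none passed the filter. Likewise Fam167a, the other gene of the FAM167 family, had 0.0483 RPKM in OC and 0.0275 RPKM in OCP.

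Around Hmga2, 4 of 9 tested genes of its family and of the LIN28 to let-7 axis were higher and 1 was lower, with a median log2 change of 0.01. Hmga1, the other HMGA gene, was abundant in both groups and higher in OC, at 475 ± 18.9 RPKM in OC and 186 ± 11.6 RPKM in OCP (SD, n = 3 each, log2 change 1.35, adjusted p = 9.6e-07, limma). Igf2bp2, an RNA-binding protein whose gene is a target of HMGA2, had 9.61 ± 0.675 RPKM in OC and 3.50 ± 0.267 RPKM in OCP (log2 change 1.24, adjusted p = 4.93e-06, limma). The other called genes that were higher were Dis3l2 and Zcchc6. Dis3l2, the nuclease that degrades marked let-7 precursors, had 5.29 RPKM in OC and 4.11 RPKM in OCP, and Zcchc6, an enzyme that marks them, had 31.5 RPKM in OC and 25.8 RPKM in OCP. Drosha, the nuclease that starts microRNA processing, was lower, at 18.4 RPKM in OC and 24.0 RPKM in OCP (log2 change -0.37, adjusted p = 0.000269, limma). The let-7 blockers Lin28a and Lin28b had 2 reads in OC, all in Lin28a, and 6 reads in OCP, all in Lin28b.

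Enzymes that silence genes were listed because near-silent genes are often held by DNA methylation or by Polycomb proteins; neither mark was measured here. Of 5 tested genes of DNA methylation, Tet2, which oxidises methylcytosine, was higher, at 5.03 ± 0.459 RPKM in OC and 3.71 ± 0.384 RPKM in OCP (SD, n = 3 each, log2 change 0.36, adjusted p = 0.00732, limma). Dnmt3a, a methyltransferase that adds new marks, was lower, at 11.4 ± 0.211 RPKM in OC and 15.5 ± 0.506 RPKM in OCP (log2 change -0.41, adjusted p = 0.000191, limma). The maintenance enzyme Dnmt1 had 54.5 RPKM in OC and 54.4 RPKM in OCP, a log2 change of 0.00 (adjusted p = 0.962, limma). Of 20 tested Polycomb genes and H3K27 demethylases, 7 were higher, 4 lower and 9 not called, with a median log2 change of 0.08. Over all tested genes the shares were 23.5% higher and 32.1% lower. Phc3, a subunit of the repressive complex PRC1, had 1.93 ± 0.173 RPKM in OC and 0.893 ± 0.0664 RPKM in OCP (log2 change 0.63, adjusted p = 0.000191, limma, and 0.00108 without the filter). The demethylase Kdm6b had 5.26 RPKM in OC and 3.52 RPKM in OCP (log2 change 0.47, adjusted p = 0.000363, limma). Cbx8, another PRC1 subunit, had 1.07 RPKM in OC and 2.26 RPKM in OCP (log2 change -0.66, adjusted p = 0.000238, limma). The methyltransferase Ezh2, which writes the mark that Kdm6b removes, was also higher, at 7.63 RPKM in OC and 5.46 RPKM in OCP (log2 change 0.42, adjusted p = 0.0011, limma).

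Markers of skin, germ and trophoblast cells, in which Spink5 and the Rhox genes are known, were low, and markers of liver and embryo were not listed. Of 5 keratinocyte markers in the table, 3 were under 0.1 RPKM in both groups, and the sum was 1.60 to 1.77 RPKM in OC and 2.70 to 2.99 RPKM in OCP, below the level of Spink5 in OC. Most of that sum was Dsp, a desmosome protein, at 1.52 RPKM in OC and 2.44 RPKM in OCP. Of 6 germ cell and trophoblast markers, 4 were under 0.1 RPKM in both groups, and the sum was 0.793 to 0.962 RPKM in OC and 0.265 to 0.461 RPKM in OCP. Tpbpa, a trophoblast gene, was the most abundant of them, at 0.639 RPKM in OC and 0.120 RPKM in OCP. Summed markers reached 3.12 RPKM at most in either group for stromal cells, 2.90 RPKM for endothelial cells, 0.402 RPKM for erythroid cells and megakaryocytes and 0.0939 RPKM for B cells. Neutrophil markers summed to 39.3 to 44.0 RPKM in OC and 28.6 to 30.9 RPKM in OCP, led by S100a9 at 31.9 and 23.2 RPKM. The part of these cells in the levels of the 6 genes was not tested.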

How the data were processed

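The authors deposited 1 table of RPKM values with exon coordinates and lengths, per the file headers. Per the labels, total RNA went into a stranded mRNA library kit. Per the submitters' processing notes, Trimmomatic 0.36, STAR 2.5.3a and featureCounts were used; the notes name GRCh38, but the positions are those of mouse genes on GRCm38. RPKM times length, scaled by the recovered read total of each library, gave whole reads for 100% of values within 0.01 reads. That low counts are mostly even may mean that both reads of a pair were counted, which the sources used here do not state.

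OC and OCP were compared with limma 3.58.1 (R 4.3.3) on log2(RPKM + 1), with trend and robust options, for genes that reached 1 RPKM in 3 or more libraries; p-values were two-sided and Benjamini-Hochberg adjusted over all tested genes (threshold 0.05). The filtered limma comparison was checked on simulated data that did not model genes silent in a single group. The other steps were not simulated. Shared windows and motifs were counted with Python 3.11.15. Alternatives were other pseudocounts (0.1, 0.01), no filter, TMM, quantile normalization, no trend and robust options, a replicate block, voom on recovered reads, and leaving out each library.

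The members and lists were chosen with earlier results of these data known. The rule named the 6 genes, genes overlapping their exons, the nearest detected gene on each side, the 2 genes most alike each, and per list the 3 called genes with the largest change and, for other cells, the most abundant gene; further genes were named after their values were seen. One gene that the rule names is not reported here.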

Additional observations from a re-analysis of the deposited data

How the results depend on the processing

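Of 72 genes named and tested, 53 were called. Of these, 5 (Pnp2, Dcp2, Bet1l, Gm10263 and Il7r) lost the call in at least 1 of 14 alternatives. In some alternatives 2 uncalled genes were called, and changes of sign among genes that stayed uncalled were not counted. Of the 53 called genes, 0 changed sign where tested. Another 7 called genes (C330022C24Rik, Cx3cr1, Lck, Mrc1, Phc3, Rhox5 and Slc2a9) fell below the filter, untested, when any OC library was left out, so that the purine list then had 2 higher genes in place of 3. Calls numbered 2211 to 2936 higher and 3259 to 3671 lower with a library left out, against 2889 and 3954. Pnp2 was lost from the purine list, leaving 1 lower gene, with TMM, no filter, quantile normalization, the replicate block and voom, and the count was 1 to 2 with a library left out. Voom gave 2 lower genes for the LIN28 to let-7 list, and 2 higher genes for DNA methylation, as did no filter (Dnmt3l). The ratio of Spink5 was 1290 to 4177 with a library left out, and that of Irx2 was 324 after quantile normalization. The near-silent pattern held for 54 genes with at least 5 RPKM in OC and for 73 with under 0.1 RPKM in OCP.

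Deviations of same-numbered libraries correlated at -0.11, 0.14 and 0.01, within the range of unlike-numbered libraries, -0.28 to 0.26. With 3 libraries per group, these values cannot decide whether replicate numbers pair the samples. With the number as a block, 2827 genes were higher and 3851 lower in OC.

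In OCP, Spink5, Fam167b and Irx2 rested on 16, 8 and 6 reads, and depth limits their ratios; Rhox2h has a lower bound.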
